A study of Salmo salar with 54 samples.

Results

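Exposures of Atlantic salmon liver cells to 2 arsenic compounds were set against each other gene by gene: arsenite (AsIII) at 3 µM and arsenosugar glycerol (AsSug) at 250 µM, the highest dose of each compound in the series. The quantity compared was a difference of differences. The effect of AsIII was the log2 level at 3 µM minus that in the AsIII control, the effect of AsSug was the log2 level at 250 µM minus that in the AsSug control, and the AsSug effect was subtracted from the AsIII effect. All 24 libraries of these 4 groups entered, out of 54 libraries in the series, and 18899 of the 18901 genes listed passed the filter on low values and were tested.

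RNA was sequenced from primary hepatocytes of 6 male salmon (Salmo salar), cultured on laminin-coated 3-dimensional scaffolds and exposed for 48 h. Every fish gave cells to all groups, with 1 plate per compound, and each plate carried its own unexposed control in the same medium with fetal bovine serum. Each of the 4 groups, namely AsIII control, AsIII 3 µM, AsSug control and AsSug 250 µM, held 6 libraries, 1 from each of fish 1 to 6. The fish are the replicates, and liver cells in culture lack the blood flow and the other organs of the animal, so the groups describe isolated cells. The doses differ between the compounds, so every comparison here is between these exposures and not between equal amounts of arsenic.

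Arsenite is inorganic trivalent arsenic, which binds neighbouring thiol groups of proteins. In other animals it is known to unfold proteins and to activate the heat shock factors, the oxidative stress factor NRF2 and the unfolded protein response, and the liver methylates it for excretion. Arsenosugars are organic compounds of seaweeds in which dimethylated arsenic is bound to a ribose. Hepatocytes themselves make plasma proteins, lipoproteins, glucose and sterols, and they conjugate and export foreign compounds.

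The libraries at 250 µM AsSug stood apart before any gene was compared. They held 897560 to 5383764 reads each against 9703448 to 21754676 in the other 3 groups, and 207 to 921 of the listed genes had no read in them against 0 to 14 elsewhere. The library names of the 250 µM group open with a number of their own. Those of the AsSug controls open with another, and those of both AsIII groups with a further one. That this number marks a library series is an inference from the names. Depth and this inferred series move with the 250 µM exposure and cannot be told apart from it. Per the labels' protocols the RNA integrity number was 9.7 ± 0.12 (SD) over the 48 libraries outside this group. That of the 250 µM libraries was not analysed here, so any difference in RNA integrity could not be told apart from the exposure either. Fish 2 at 250 µM had the fewest reads, and without this fish the counts of called genes were 12210 for the difference, 13920 for AsIII and 11684 for AsSug, against 12529, 14443 and 11904 with it. Of 48 hepatocyte genes listed, 25 were found by gene symbol, and none of these was at 0 in all libraries of a group. Since 12676 of the 18901 identifiers bore a LOC name, a listed gene not found by symbol may still be in the data. The 25 found had already passed the filter on low values, so their levels above 0 do not check the cell type. The summed level of these 25 genes was 855895 to 1100610 normalised reads in the controls, 673804 to 801490 at 3 µM AsIII and 284313 to 590661 at 250 µM AsSug. Abundant genes such as tfa, given below, weigh most in this sum. With AsSug 14 of the 25 were lower, 3 higher and 8 not called, so the sum does not stand for all of them.

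How many genes moved was asked first. The threshold was an adjusted p of 0.05 (limma with Benjamini-Hochberg adjustment over all genes tested), and the effects are log2 differences with the standard error (SE) of the fit. AsIII changed 14443 genes (76.4%), of which 7235 (38.3%) were higher and 7208 (38.1%) lower. AsSug changed 11904 genes (63%), with 5005 (26.5%) higher and 6899 (36.5%) lower. The effects of the compounds differed for 12529 genes (66.3%), with the AsIII effect the higher in 7324 (38.8%) and the lower in 5205 (27.5%), and 10521 of these differences had the same sign in 6 of 6 fish. At a fold of 2 or more, 5331 genes (28.2%) were called for AsIII, 7494 (39.7%) for AsSug and 8961 (47.4%) for the difference. In RNA from a whole culture, fewer cells of a type and less RNA per cell cannot be told apart.

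The split of the calls into higher and lower depended on how libraries were scaled. The median gene stood at -0.02 for AsIII, -0.20 for AsSug and 0.24 for the difference with the deposited scaling. Scaled by library totals, these medians were -0.14, 0.09 and -0.17. The AsIII effect was then the higher in 42.4% of the differences called against 58.5%, and the AsSug effect was higher in 56.6% of its calls against 42.0%. Reads thinned to the shallowest library, which were likewise scaled by their totals, gave shares of 41.7% and 60.4%. Thinned reads are therefore not a scaling independent of library totals. With TMM factors, a scaling that trims extreme genes, the medians were -0.05, -0.07 and 0.08. Directions of genes with small effects are therefore relative to the scaling, and the called effects named in what follows kept their direction under each scaling unless stated.

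Of all genes tested, 9206 (48.7%) were called with both compounds and 17141 (90.7%) with at least 1. With 76.4% of all genes called for AsIII and 63% for AsSug, many would be called with both even if the calls were unrelated. The size of the overlap is therefore not read as a shared response. The groups by direction below are likewise to be read against the shares higher and lower with each compound. Among the 9206, 5320 moved in the same direction and 3886 in opposite directions, a same-direction share of 57.8% (57.1 to 61.7% over 16 alternative settings). At a fold of 2 or more in both, 1409 of 2232 genes (63.1%) shared the direction. Across all genes the effects were weakly related, with Pearson's r = 0.14 and Spearman's rho = 0.13, and within single fish r ran from 0.0704 to 0.154. These correlations are descriptions across genes, which are not independent replicates, and the points of a fish share its 4 libraries. The plates had separate controls, so no control library enters both effects.

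**Figure D1:**
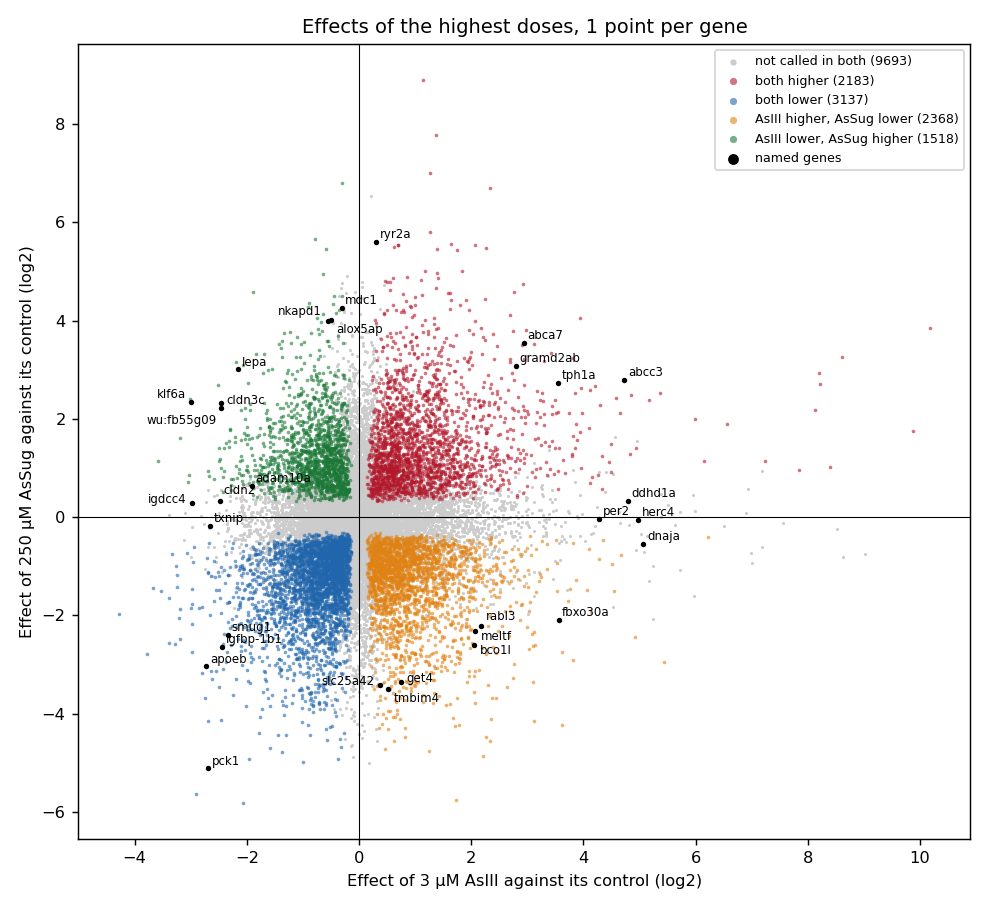
Effect of 3 µM AsIII (x axis, log2 difference from its control) against the effect of 250 µM AsSug (y axis, same scale), 1 point for each of 18899 genes, coloured by the 4 combinations of direction among genes called with both compounds, with named genes in black. All 4 quadrants are filled, with 2183 and 3137 genes in the same-direction quadrants and 2368 and 1518 in the opposite ones.

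Transcripts higher with both compounds numbered 2183 (11.6% of the genes tested), 744 of them (3.94% of all genes) at 2-fold or more in both. In 801 of the 2183 the 95% interval of the difference lay inside 2-fold either way. In 1228 (56.3%) the effects differed by the test, with the larger rise after AsIII in 404 (18.5%) and after AsSug in 824 (37.7%). The named genes of this and the following groups were taken by rank, as set out in the processing notes, from genes with a symbol.

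Levels are given as the median of the 6 libraries of a group, with the lowest and the highest in brackets. The lipid transporter gene abca7 (GeneID 106573884) was at 12.8 (9.3 to 19.1) normalised reads in the AsIII controls and at 113 (87.7 to 115) after AsIII. In the AsSug controls it was at 18.8 (9.88 to 20.1), and at 250 µM AsSug at 163 (113 to 466). Every exposed library lay above every control of its plate, and the effects were 2.94 ± 0.16 (limma adjusted p = 4.11e-11) with AsIII and 3.55 ± 0.27 (limma adjusted p = 3.25e-08) with AsSug. Their difference, -0.61 ± 0.32, did not pass (limma adjusted p = 0.0976), with a 95% interval of -1.28 to 0.05. It did pass with library totals (-1.03, adjusted p = 0.013), with TMM factors (-0.77, adjusted p = 0.042), with a pseudocount of 10 (-0.68, adjusted p = 0.0301), with edgeR (-0.87, adjusted p = 0.0205), with DESeq2 (-0.77, adjusted p = 0.0418) and without fish 6 (-0.84, adjusted p = 0.0395), all adjusted by Benjamini-Hochberg within limma, edgeR or DESeq2.

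gramd2ab (GeneID 106560749), which encodes a GRAM domain membrane protein, rose from 7.64 (4.62 to 16.7) to 66.6 (54.8 to 77) normalised reads with AsIII. On the AsSug plate it rose from 9.01 (6.7 to 19.2) to 92.5 (33.3 to 151). Again the groups did not overlap on either plate. The effects of 2.8 ± 0.25 and 3.08 ± 0.34 (limma adjusted p = 2.2e-08 and 1.72e-06) were not distinguished, with an interval of the difference of -1.2 to 0.65.

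abcc3 (GeneID 106589510), whose human counterpart exports conjugated organic anions from liver cells, was low in the controls, at 4.77 (0.767 to 11.6) normalised reads on the AsIII plate and 7.52 (1.91 to 9.97) on the AsSug plate. It reached 141 (114 to 176) with AsIII and 51.4 (18.8 to 125) with AsSug. The groups did not overlap on either plate, and the AsIII effect, 4.73 ± 0.32, was the larger by 1.94 ± 0.67 (limma adjusted p = 0.0171) in 5 of 6 fish. That limma difference did not pass without fish 2 (1.21, adjusted p = 0.0937), without fish 6 (1.63, adjusted p = 0.0713), with library totals (1.53, adjusted p = 0.0659) or with 1 difference of differences per fish (1.94, adjusted p = 0.0566). tph1a (GeneID 106584760), the enzyme that starts serotonin synthesis, rose by 3.54 ± 0.38 with AsIII and 2.73 ± 0.54 with AsSug (limma adjusted p = 2.47e-07 and 0.000426), and the interval of its difference was -0.60 to 2.23. It rests on 85 reads over the 6 libraries at 250 µM.

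A member of the arsenic and metal handling list was also higher with both. mt2 (GeneID 100136581), a metallothionein that binds metals through cysteine thiols, was at 245 (177 to 287) normalised reads in the AsIII controls and 549 (476 to 625) after AsIII. It was at 209.5 (128 to 254) in the AsSug controls and 1676 (1107 to 2488) at 250 µM AsSug. All exposed libraries exceeded their controls, and the rise was smaller with AsIII (1.23 ± 0.09) than with AsSug (3.09 ± 0.20), by -1.86 ± 0.25 (limma adjusted p = 4.15e-06), in 6 of 6 fish.

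Transcripts lower with both compounds numbered 3137 (16.6%), 665 of them (3.52% of all genes) at 2-fold or more in both. The interval of the difference lay inside 2-fold in 1248. In 1522 (48.5%) the effects differed, with the larger fall after AsIII in 197 (6.28%) and after AsSug in 1325 (42.2%). This split was counted with the deposited scaling only. The median difference over all genes was 0.24 there and -0.17 with library totals, so the split is relative to the scaling.

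apoeb (GeneID 106577506), an apolipoprotein E of lipoprotein particles, was at 9051 (7263 to 14274) normalised reads in the AsIII controls and 1418 (1073 to 2177) at 3 µM. It was at 9192 (5978 to 11614) in the AsSug controls and 1013 (518 to 1977) at 250 µM. Neither plate's groups overlapped. The falls of -2.72 ± 0.09 and -3.04 ± 0.18 (limma adjusted p = 4.66e-14 and 3.72e-09) differed by 0.32 ± 0.22, which did not pass, with an interval of -0.15 to 0.79, and which turned negative with library totals and with thinned reads.

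pck1 (GeneID 100195420), the enzyme that commits carbon to glucose synthesis, was at 936 (712 to 1447) normalised reads in the AsIII controls and fell to 164 (76.2 to 220.0) with AsIII. From 1057 (628 to 1392) in the AsSug controls it fell to 22.1 (16.9 to 65.9), which is 63 reads over 6 libraries. Both falls separated the groups without overlap. The AsSug effect, -5.11 ± 0.29, went further than the AsIII effect, -2.69 ± 0.15, and the difference of 2.42 ± 0.38 (limma adjusted p = 2.39e-05) had the same sign in 6 of 6 fish.

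igfbp-1b1 (GeneID 100136518), a binding protein of insulin-like growth factors secreted by the liver, fell on both plates. Its levels were 4079 (3139 to 4976) normalised reads in the AsIII controls, 771 (594 to 909) with AsIII, 4026 (3316 to 4396) in the AsSug controls and 607 (532 to 857) with AsSug. No exposed library reached its controls. The effects were -2.45 ± 0.10 (limma adjusted p = 1.16e-12) and -2.64 ± 0.13 (limma adjusted p = 4.79e-10), and the 95% interval of their difference, -0.16 to 0.54, lay inside 2-fold. The sign of that difference changed with library totals and with thinned reads. smug1 (GeneID 106583296), a glycosylase that removes uracil from DNA, had effects of -2.34 ± 0.18 and -2.4 ± 0.43 (limma adjusted p = 2.96e-09 and 0.000169). Its AsSug value rests on 28 reads, and the interval of the difference, -0.94 to 1.05, spanned about 2-fold either way, with a sign that changed under several alternatives.

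Opposite movements came next. AsIII raised and AsSug lowered 2368 genes (12.5%), 553 of them (2.93% of all genes) by 2-fold or more each way. The difference was called in 100% of them. The group was chosen for both effects being called with opposite sign, so that share adds no evidence. With library totals this group held 1451 genes.

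The ubiquitin ligase gene fbxo30a (GeneID 106603398), an F-box subunit that picks substrates for degradation, was at 118 (90.6 to 149) normalised reads in the AsIII controls and 1440.0 (1191 to 1592) with AsIII. It was at 125 (94.9 to 169) in the AsSug controls and 35.9 (9.54 to 56.5) with AsSug, 73 reads in all. The control ranges of the plates overlapped, and the exposed libraries lay above them on one plate and below them on the other. The effects of 3.56 ± 0.09 (limma adjusted p = 3.83e-15) and -2.09 ± 0.34 (limma adjusted p = 8.35e-05) were 5.65 ± 0.39 (limma adjusted p = 9.56e-10) apart.

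meltf (GeneID 106560584), an iron-binding membrane glycoprotein of the transferrin family, went from 3698 (2670.2 to 5012) to 14955 (12492 to 18677) normalised reads with AsIII and from 3740.0 (2355 to 5672) to 661 (449 to 1550.4) with AsSug. The groups were fully separated on each plate, in opposite directions. The difference was 4.39 ± 0.28 (limma adjusted p = 4.65e-10).

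bco1l (GeneID 101448035), a relative of the enzyme that cleaves carotenoids, had effects of 2.06 ± 0.11 with AsIII and -2.6 ± 0.21 with AsSug. The small GTPase gene rabl3 (GeneID 106581749) had effects of 2.17 ± 0.09 and -2.21 ± 0.39. Their differences, 4.65 ± 0.20 and 4.38 ± 0.40, passed (limma adjusted p = 5.52e-12 and 4e-08), and they rest on 84 and 45 reads at 250 µM.

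The reverse pattern, lower with AsIII and higher with AsSug, held for 1518 genes (8.03%), 270 of them (1.43% of all genes) by 2-fold or more each way. The difference was called in 100% of these too, which again follows from how the group was chosen. With library totals it held for 2374 genes.

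klf6a (GeneID 100196412), a zinc finger transcription factor induced early in injured liver of mammals, was at 1113 (909 to 1385) normalised reads in the AsIII controls and 126 (111 to 194) with AsIII. In the AsSug controls it was at 1025 (780.3 to 1394), and at 250 µM at 5544 (3292 to 7828). The lowest AsSug library was above every control and the highest AsIII library below every one. The effects, -2.99 ± 0.08 (limma adjusted p = 8.68e-15) and 2.35 ± 0.20 (limma adjusted p = 1.46e-07), differed by -5.34 ± 0.25 (limma adjusted p = 1.05e-11).

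The leptin gene lepa (GeneID 106561227), a hormone of energy balance that fish express in liver, fell from 18.6 (14 to 23.3) to 3.93 (0.975 to 6.26) normalised reads with AsIII. With AsSug it rose from 16 (7.23 to 17.2) to 126 (80.0 to 188). The groups did not overlap on either plate, and the difference was -5.17 ± 0.39 (limma adjusted p = 2.78e-09). At such low levels with AsIII the size of the fall depends on the pseudocount. The AsIII effect was -2.16 ± 0.29, and with a pseudocount of 10 it was -1.07 and the difference -3.50.

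The tight junction gene cldn3c (GeneID 106563774) had effects of -2.46 ± 0.09 with AsIII and 2.33 ± 0.27 with AsSug, and wu:fb55g09 (GeneID 100286536) had effects of -2.47 ± 0.12 and 2.22 ± 0.18. Their differences of -4.79 ± 0.33 and -4.69 ± 0.23 passed (limma adjusted p = 1.16e-09 and 2.33e-11).

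A change with 1 compound alone was read from the interval of the other effect, since a p that misses the threshold does not show that a gene held still. The gene had to be called at 2-fold or more with the first compound, the difference had to be called at 2-fold or more, and the 95% interval of the other effect had to lie inside 2-fold either way. On these terms 4.16% of the genes tested were higher with AsIII alone and 429 (2.27%) lower with AsIII alone, against 1428 (7.56%) higher and 1945 (10.3%) lower with AsSug alone. The other effect, though within 2-fold, was itself called in 125, 48, 655 and 1158 of these genes. Such genes, among them some named below, are also counted above among those called with both compounds, so the groups overlap. In these groups, alone means that the other effect was bounded within 2-fold and not that it was absent. The median SE was 0.11 for AsIII effects and 0.22 for AsSug effects, so fewer AsSug effects could be bounded within 2-fold, and the sizes of the AsIII and AsSug groups cannot be compared directly.

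dnaja (GeneID 106584850), a DnaJ co-chaperone that hands unfolded proteins to HSP70, was at 1471 (1145 to 2446) normalised reads in the AsIII controls and 53233 (46332 to 56133) with AsIII. In the AsSug controls it was at 1614 (1332 to 2302), and at 250 µM at 1239 (537 to 1762). The AsIII groups were far apart and the AsSug groups overlapped. The AsIII effect was 5.07 ± 0.10 (limma adjusted p = 2.95e-16) and the AsSug effect -0.54 ± 0.19 (limma adjusted p = 0.02), which was not called with 6 of the alternatives, among them limma with library totals (-0.24, adjusted p = 0.323) and without fish 1 (-0.31, adjusted p = 0.0705). The difference was 5.61 ± 0.25 (limma adjusted p = 5.37e-12).

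herc4 (GeneID 106576831), a HECT domain ubiquitin ligase, was at 555 (538 to 715) normalised reads in the AsIII controls and 17704 (16677 to 22574) with AsIII. It was at 628 (517 to 973) and 557 (442 to 1145) without and with AsSug. The AsIII groups were separated and the AsSug groups overlapped. The AsSug effect of -0.06 ± 0.16 had an interval of -0.41 to 0.29 and a sign that changed with the scaling, and the difference was 5.04 ± 0.20 (limma adjusted p = 1.54e-12).

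Likewise ddhd1a (GeneID 106601609), a phospholipase, had effects of 4.79 ± 0.09 with AsIII and 0.33 ± 0.31 with AsSug, and the clock gene per2 (GeneID 100301980), a repressor in the daily feedback loop, had effects of 4.28 ± 0.10 and -0.03 ± 0.23. The differences were 4.46 ± 0.35 (limma adjusted p = 5.14e-09) and 4.31 ± 0.25 (limma adjusted p = 1.4e-10). The AsSug effect of ddhd1a was called by limma without fish 1 (0.70, adjusted p = 0.0266), and that of per2 changed sign with the scaling.

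Among genes lower with AsIII alone, igdcc4 (GeneID 106587237), an immunoglobulin superfamily membrane protein, was at 175 (147 to 200.0) normalised reads in the AsIII controls and 21 (13.6 to 27.4) with AsIII, against 153 (119.7 to 189.8) and 189.6 (141 to 217) on the AsSug plate. AsIII libraries lay wholly below their controls while AsSug libraries overlapped theirs. The effects were -2.97 ± 0.13 (limma adjusted p = 2.36e-12) and 0.29 ± 0.18 (limma adjusted p = 0.16), and the difference -3.27 ± 0.22 (limma adjusted p = 7.13e-10). The AsSug effect was called as a rise by limma with library totals (0.59, adjusted p = 0.0171) and with all 5 AsSug groups in the fit (0.29, adjusted p = 0.0236).

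txnip (GeneID 100195402), which binds and inhibits thioredoxin, fell from 334 (235 to 388) to 50.3 (30.2 to 71.6) normalised reads with AsIII. On the AsSug plate it was at 262 (209.6 to 377) in controls and 241 (165 to 409) at 250 µM, with overlap. The AsIII effect was -2.65 ± 0.15 (limma adjusted p = 5.73e-11), the interval of the AsSug effect was -0.52 to 0.16, and the difference was -2.47 ± 0.24 (limma adjusted p = 6.13e-08). That AsSug effect turned positive with library totals and with thinned reads. cldn2 (GeneID 106602824), a claudin of tight junctions, and adam10a (GeneID 106562201), a protease that sheds membrane proteins, had effects of -2.48 ± 0.10 and -1.91 ± 0.10 with AsIII. Both had small AsSug effects in the other direction, 0.33 ± 0.13 and 0.64 ± 0.16 (limma adjusted p = 0.0377 and 0.00328), of which that of cldn2 was not called without any one of fish 2, 3 and 6.

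Among genes higher with AsSug alone, ryr2a (GeneID 106613696), a channel that releases calcium from internal stores, was at 18 (9.2 to 33.5) normalised reads in the AsIII controls and 23.8 (12.5 to 40.0) with AsIII. It was at 12.8 (5.49 to 22.7) in the AsSug controls and 660.5 (303 to 1524) with AsSug. Each AsSug library was far above its controls, and the AsIII groups overlapped. The AsSug effect was 5.61 ± 0.20 (limma adjusted p = 2.24e-11), the AsIII effect had an interval of -0.18 to 0.80, and the difference was -5.3 ± 0.32 (limma adjusted p = 1.87e-10).

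mdc1 (GeneID 106605400), a scaffold that gathers repair factors at broken DNA, was at 197 (149 to 228) normalised reads in the AsSug controls and 3826 (2256 to 5749.8) at 250 µM. On the AsIII plate it was at 189.8 (143 to 211) and 146 (129 to 184). The AsSug groups were separated and the AsIII groups overlapped. Its AsIII effect was small and negative, -0.31 ± 0.10 (limma adjusted p = 0.00811), and was not called by limma with all 24 libraries in 1 fit (-0.31, adjusted p = 0.0845) or with all 4 AsIII groups in the fit (-0.31, adjusted p = 0.118). The difference was -4.57 ± 0.21 (limma adjusted p = 9.96e-12). nkapd1 (GeneID 106613032) and alox5ap (GeneID 100286557), the latter a membrane protein that serves leukotriene synthesis, rose by 4.0 ± 0.18 and 4.0 ± 0.17 with AsSug. Their AsIII effects were -0.56 ± 0.18 and -0.50 ± 0.17 (limma adjusted p = 0.00954 and 0.0131), and neither was called with thinned reads, nor that of alox5ap without fish 1.

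Among genes lower with AsSug alone, tmbim4 (GeneID 106609847), a Golgi membrane protein that in mammals restrains cell death, went from 631 (571 to 655) to 63.2 (31 to 69.9) normalised reads with AsSug. With AsIII it went the other way, from 645 (608 to 769) to 944 (866 to 1051). Neither pair of groups overlapped, but the AsIII effect of 0.51 ± 0.07 was small beside the AsSug effect of -3.51 ± 0.19, and the difference was 4.02 ± 0.21 (limma adjusted p = 2.92e-11). get4 (GeneID 100136505), which helps insert tail-anchored proteins into the endoplasmic reticulum (ER), and slc25a42 (GeneID 106569683), a mitochondrial carrier of coenzyme A, had AsSug effects of -3.36 ± 0.35 and -3.43 ± 0.41 and AsIII effects of 0.75 ± 0.08 and 0.37 ± 0.11. The AsIII effect of get4 was not called by limma with thinned reads (0.35, adjusted p = 0.0762). The slc25a42 values rest on 32 reads at 250 µM, and its AsIII effect was not called by limma with thinned reads (-0.39, adjusted p = 0.23) or with all 24 libraries in 1 fit (0.37, adjusted p = 0.324).

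**Figure D2:**
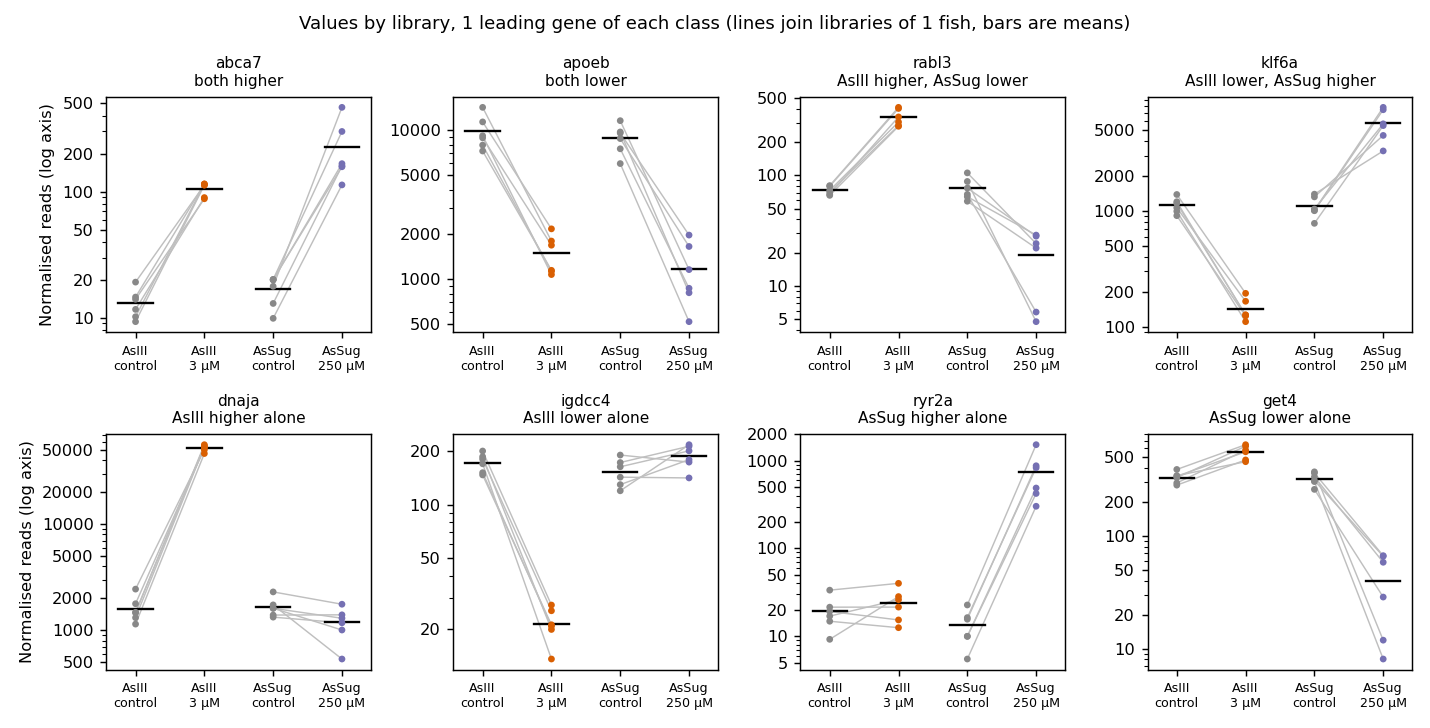
Normalised reads on a log axis (y axis) in the 4 groups (x axis) for 1 leading gene of each of the 8 groups of genes, with 1 point per library, grey lines joining libraries of the same fish and a bar at each mean. The exposed points of abca7 and apoeb move the same way on both plates, those of rabl3 and klf6a move opposite ways, and dnaja, igdcc4, ryr2a and get4 move 2-fold or more on 1 plate.

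The 32 genes taken by rank were, at 50 µM AsSug, the next lower dose, at 0.853 to 1.38 times their control mean. These ratios share the AsSug controls with the 250 µM effects and are given as values only.

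Gene lists of known pathways were then set beside the whole table, with 23 pathway lists and 6 lists of cell type markers. For each list the members called in each direction were counted and the median effect taken, to be read against the shares of all genes given above and the medians of -0.02 (AsIII), -0.20 (AsSug) and 0.24 (difference). With library totals AsIII raised 6381 and lowered 8274 of the 18899 genes tested, and AsSug raised 6453 and lowered 4946. The difference then favoured AsIII for 5236 of all genes and AsSug for 7103, and with thinned reads for 3653 and 5097. List counts under these scalings are to be read against those. The median of the difference kept its sign under the other scalings and edgeR in 17 of the 23 pathway lists, 12 positive and 5 negative.

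**Figure D3:**
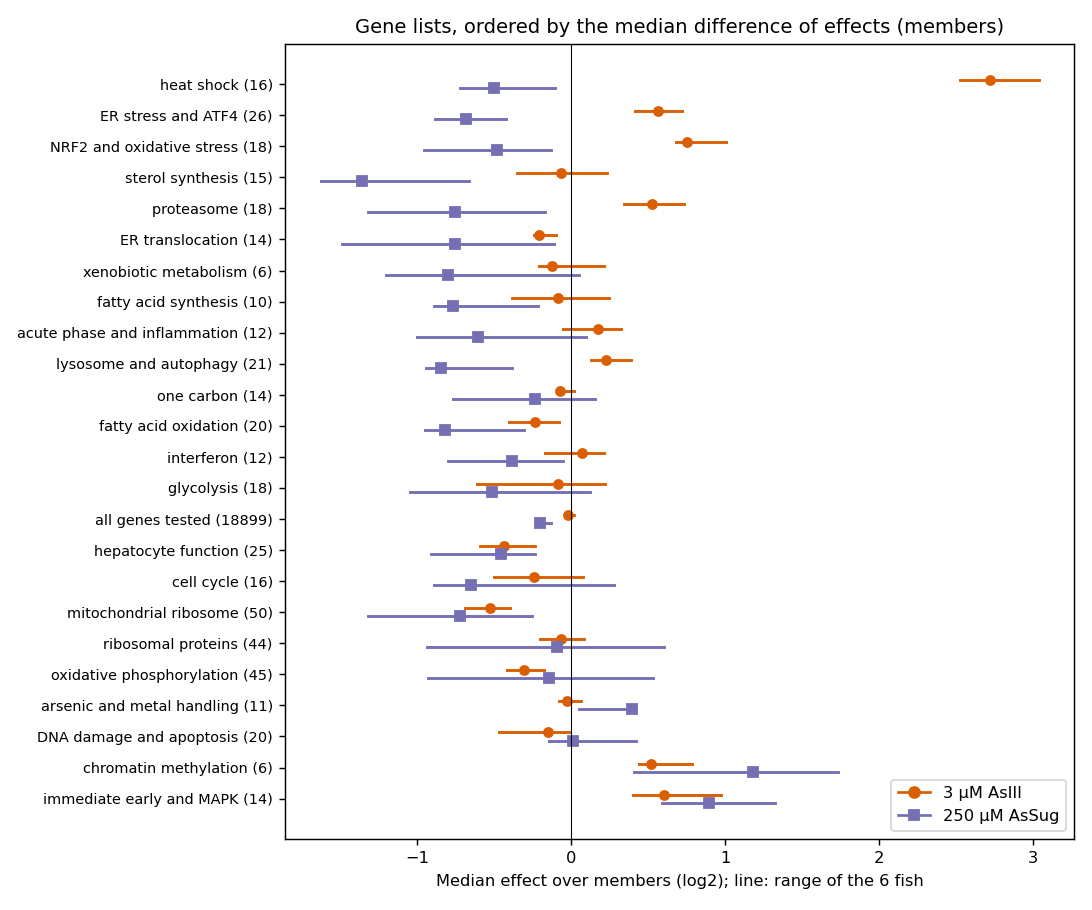
Median effect over the members of each pathway list (x axis, log2) for 3 µM AsIII (circles) and 250 µM AsSug (squares), with the number of members in brackets and lines giving the range of the median over the 6 fish. Heat shock genes lie furthest apart, with medians of 2.72 and -0.50, and the immediate early genes lie above 0 with both compounds.

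Chaperones and their partners, which refold damaged proteins, had the largest median difference of the 23 lists. Of 16 heat shock genes, 13 were higher and 1 lower with AsIII (median 2.72), and 5 were higher and 9 lower with AsSug (median -0.50, or 0.16 with thinned reads). The effects differed in favour of AsIII for 14 and of AsSug for 1, with a median of 3.25 (2.83 with library totals). Of the 16, 4 rose with both compounds and 8 rose with AsIII and fell with AsSug.

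bag3 (GeneID 100286445), which links HSP70 to autophagy, was at 216 (174 to 296) normalised reads in the AsIII controls and 34673 (23951 to 41968) with AsIII. It was at 224 (165 to 520.0) and 541 (335 to 1057) on the AsSug plate. AsIII libraries were far above every control, and the AsSug groups overlapped although each fish rose. The effects were 7.24 ± 0.14 (limma adjusted p = 1.21e-16) and 1.14 ± 0.21 (limma adjusted p = 0.000222), 6.09 ± 0.29 (limma adjusted p = 1.28e-11) apart.

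hsp30 (GeneID 100195939), a small heat shock protein that holds unfolded proteins in solution, was at 25.4 (2.3 to 124) normalised reads in the AsIII controls and 6047 (4149.8 to 9488) with AsIII. Its AsSug controls ran over a wide range, 21.1 (1.1 to 535), and overlapped the exposed libraries at 89.4 (18.8 to 1589). It rose in 6 of 6 fish with each compound, by 8.13 ± 0.56 (limma adjusted p = 7.48e-10) and 2.17 ± 0.36 (limma adjusted p = 9.39e-05), with a difference of 5.96 ± 0.84 (limma adjusted p = 6.59e-06). chordc1b (GeneID 106592229), an HSP90 co-chaperone, split the compounds, at 2.76 ± 0.08 with AsIII and -3.0 ± 0.53 with AsSug (limma adjusted p = 1.28e-14 and 0.000156). At 250 µM 1 library had no reads of it and the group held 35 in all.

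The ER stress and ATF4 list, which answers unfolded protein in the secretory pathway, was also apart. Of 26 genes, 18 were higher and 3 lower with AsIII (median 0.56), against 1 higher and 16 lower with AsSug (median -0.69). They differed in favour of AsIII for 20 genes and of AsSug for 1 (median 1.48), and with library totals for 19 and 1 (median 1.06).

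xbp1 (GeneID 100846957), a transcription factor that enlarges the folding capacity of the ER, was at 2494 (2302 to 2946) normalised reads in the AsIII controls and 10862 (9823 to 12241) with AsIII. With AsSug it was at 1499 (1073 to 1693) against 2758 (2189 to 3348) in controls. The libraries separated upwards on the AsIII plate and downwards on the AsSug plate, with effects of 2.1 ± 0.08 (limma adjusted p = 2e-13) and -0.96 ± 0.13 (limma adjusted p = 1.3e-05). The difference was 3.06 ± 0.14 (limma adjusted p = 7.64e-12).

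chac1 (GeneID 100195306), an enzyme that degrades glutathione, and ddit3 (GeneID 106566144), a transcription factor of prolonged ER stress, rose with AsIII by 2.71 ± 0.08 and 2.65 ± 0.06 and had AsSug effects of 0.17 ± 0.16 and 0.29 ± 0.18, which were not called (limma adjusted p = 0.387 and 0.167). With library totals limma called both AsSug effects as rises, at 0.47 (adjusted p = 0.0252) and 0.59 (adjusted p = 0.0102). The differences of 2.55 ± 0.20 and 2.36 ± 0.19 passed with the deposited scaling (limma adjusted p = 4.37e-09 and 6.6e-09). The largest difference of the list was that of sesn2 (GeneID 106588768), a restraint on growth signalling, at 4.24 ± 0.47 (limma adjusted p = 4.36e-07), with 17 reads and 1 library without any at 250 µM, where the AsSug effect was not called.

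Proteasome genes, whose products degrade ubiquitin-tagged proteins, moved apart as well. Of 18, 11 were higher and 4 lower with AsIII (median 0.52), and 4 were higher and 11 lower with AsSug (median -0.75). Differences were called for 13 in favour of AsIII and for 2 in favour of AsSug, with a median of 0.97. With library totals these counts were 10 and 2, and the medians were -0.46 for AsSug and 0.55 for the difference. With thinned reads they were -0.35 and 0.55.

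psma5 (GeneID 100195931), a subunit of the core particle, went from 1304 (1133 to 1414) to 2271 (1844 to 2490.4) normalised reads with AsIII and from 1247 (967 to 1297) to 379.7 (231 to 646) with AsSug. Both plates separated without overlap, in opposite directions, and the difference was 2.47 ± 0.21 (limma adjusted p = 1.27e-08). Another core subunit, psma4 (GeneID 106560782), moved the other way, at -0.31 ± 0.08 with AsIII and 1.3 ± 0.15 with AsSug, a difference of -1.62 ± 0.15 (limma adjusted p = 5.9e-08). Members of the complex therefore moved in different directions.

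The NRF2 list, which covers glutathione synthesis and the defence against oxidants, held 18 genes found by symbol. With AsIII 12 were higher and 6 lower (median 0.75), and with AsSug 1 was higher and 10 lower (median -0.48). The difference was called in favour of AsIII for 12 and of AsSug for 1 (median 1.16). With library totals 3 were higher and 6 lower with AsSug (median -0.19), and the difference favoured AsIII for 9 and AsSug for 5 (median 0.74). With the deposited scaling 8 of the 18 rose with AsIII and fell with AsSug.

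sqstm1 (GeneID 100194694), an autophagy receptor that also sequesters the NRF2 inhibitor, was at 24239 (20498 to 36854) normalised reads in the AsIII controls and 223885 (200629 to 236371) with AsIII. In the AsSug controls it was at 25949 (22331 to 46035) and at 250 µM at 8869.8 (5875 to 12836). The libraries were separated on both plates, upwards with AsIII and downwards with AsSug. The effects were 3.05 ± 0.11 (limma adjusted p = 3.01e-13) and -1.73 ± 0.17 (limma adjusted p = 4.85e-07), and the difference 4.78 ± 0.20 (limma adjusted p = 4.44e-12).

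keap1a (GeneID 106574506), that inhibitor, went from 1529.7 (1289 to 2063) to 5682 (4873 to 6026) normalised reads with AsIII and from 1977 (1374 to 2907) to 600.2 (529 to 754) with AsSug. gclc (GeneID 100196780), which starts glutathione synthesis, went from 867 (723 to 968) to 1774 (1526 to 2067) and from 979.8 (769.5 to 1396) to 254 (197 to 329). Every exposed library of these genes lay outside its control range, above it with AsIII and below it with AsSug. The differences were 3.46 ± 0.18 (limma adjusted p = 3.66e-11) for keap1a and 2.96 ± 0.17 (limma adjusted p = 1.01e-10) for gclc. gsr (GeneID 106604481), which recycles oxidised glutathione, had effects of 1.77 ± 0.09 and -1.14 ± 0.16 and a difference of 2.91 ± 0.19 (limma adjusted p = 5.89e-10).

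Lysosome and autophagy genes split in the same sense, with 12 of 21 higher and 5 lower with AsIII (median 0.22) and 2 higher and 13 lower with AsSug (median -0.84). With library totals 9 were higher and 7 lower with AsIII (median 0.10), and 5 were higher and 11 lower with AsSug (median -0.54). With the deposited scaling the difference favoured AsIII in 13 and AsSug in 1 (median 0.73), and with library totals in 10 and 4 (median 0.31). optn (GeneID 100195260), a receptor that delivers cargo to autophagosomes, went from 732 (703 to 1021) to 1524 (1463 to 1614) normalised reads with AsIII. With AsSug it went from 774 (729.9 to 1180.5) to 150.0 (97.8 to 339). The groups were separated on both plates, and the difference was 3.34 ± 0.21 (limma adjusted p = 3.17e-10).

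**Figure D4:**
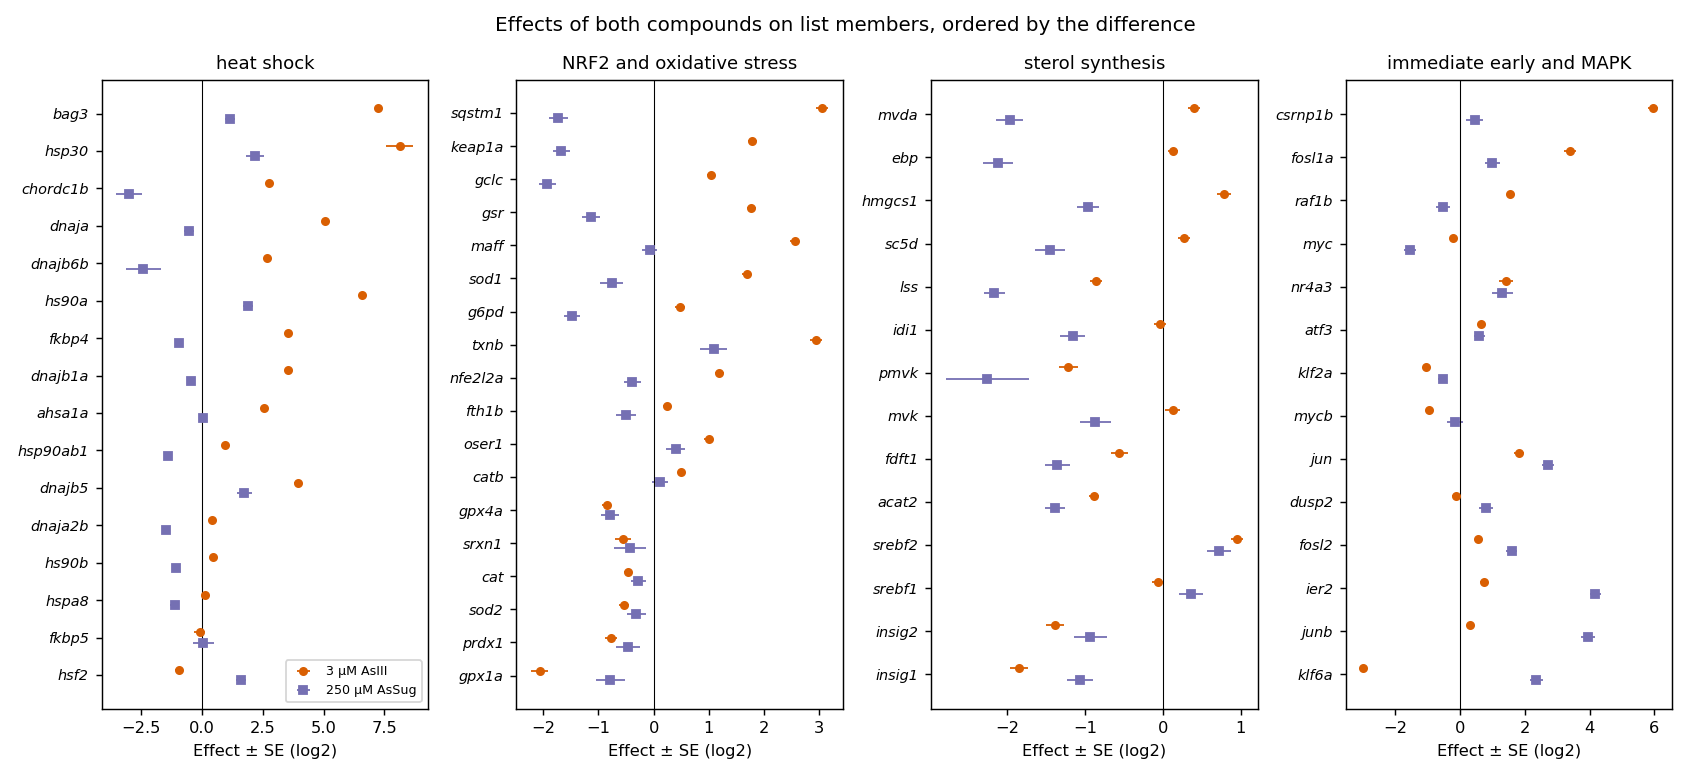
Effects on members of 4 lists (x axes, log2 difference from the control of the same plate, with SE bars) for 3 µM AsIII (circles) and 250 µM AsSug (squares), ordered by their difference. In the heat shock and NRF2 lists most circles lie to the right of the squares, in the sterol list the squares lie mostly below 0 and the circles on both sides of it, and in the immediate early list junb, ier2 and klf6a have the squares to the right.

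Lipid synthesis was examined next. Of 15 sterol synthesis genes, 4 were higher and 6 lower with AsIII (median -0.07), and 1 was higher and 13 lower with AsSug (median -1.36, or -1.06 with library totals). The difference was called for 10 in favour of AsIII and for 2 in favour of AsSug (median 1.04), with library totals for 8 and 3 (median 0.70), and 5 of the 15 counted as lower with AsSug alone.

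mvda (GeneID 106562275), the decarboxylase of the mevalonate pathway, was at 825 (700.0 to 1128) normalised reads in the AsSug controls and 219.9 (179 to 335) at 250 µM, against 839 (761 to 1099.6) and 1225 (877 to 1304) on the AsIII plate. ebp (GeneID 106573007), a sterol isomerase, was at 1322 (1159.6 to 1750.2) and 332 (188 to 585) on the AsSug plate and at 1499 (1149.5 to 1883) and 1698 (1358 to 1790.0) on the AsIII plate. AsSug libraries of both genes lay below all their controls and AsIII libraries overlapped theirs. The differences were 2.36 ± 0.19 (limma adjusted p = 9.33e-09) and 2.25 ± 0.23 (limma adjusted p = 1.31e-07). hmgcs1 (GeneID 106571543), which makes the precursor of mevalonate, rose with AsIII by 0.78 ± 0.09 (limma adjusted p = 7.05e-07) and fell with AsSug by 0.97 ± 0.14 (limma adjusted p = 2.49e-05).

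Of 10 fatty acid synthesis genes, 2 were higher and 4 lower with AsIII, and 3 were higher and 5 lower with AsSug (medians -0.09 and -0.77). Differences were called in favour of AsIII for 5 and of AsSug for 4, and with library totals for 3 and 4. elovl5 (GeneID 100192340), an elongase of polyunsaturated fatty acids, fell with AsSug from 1504 (1287 to 2314) to 233 (124 to 363) normalised reads and was at 1544 (1382 to 2264) and 1984 (1727 to 2471) without and with AsIII. Its AsSug groups were apart and its AsIII groups overlapped, with a difference of 3.18 ± 0.23 (limma adjusted p = 1.66e-09). Of 20 fatty acid oxidation genes, 3 were higher and 10 lower with AsIII and 4 were higher and 14 lower with AsSug (medians -0.23 and -0.82). Here the difference favoured AsIII for 10 and AsSug for 5, and with library totals for 6 each. acadvl (GeneID 106602820), which oxidises very long chain acyl groups, went against the AsIII median, with effects of 0.99 ± 0.07 and -2.79 ± 0.23 and a difference of 3.78 ± 0.23 (limma adjusted p = 2.28e-10).

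Immediate early genes, switched on within minutes of a signal in many cells, were mostly higher with each compound. Of 14, 9 were higher and 4 lower with AsIII (median 0.61), 9 were higher and 3 lower with AsSug (median 0.89), and 7 were higher with both. The difference favoured AsIII for 4 and AsSug for 8 (median -0.66, or -1.08 with library totals).

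csrnp1b (GeneID 106590691), a nuclear protein of the early response, was at 48.5 (25 to 65.6) normalised reads in the AsIII controls and 3000.5 (1947 to 4980.2) with AsIII. On the AsSug plate it was at 58.6 (37.3 to 83.8) in controls and 98.8 (28.8 to 111) with AsSug. The AsIII groups of this gene were separated and the AsSug groups overlapped, and the difference was 5.5 ± 0.31 (limma adjusted p = 1.11e-10). junb (GeneID 100194872), a subunit of the AP-1 transcription factor, had the larger change with AsSug. It was at 253 (107 to 327) and 313 (157 to 354) on the AsIII plate and at 228 (101 to 373) and 3449.9 (2448 to 4105) on the AsSug plate. AsSug libraries stood above all controls while AsIII libraries overlapped theirs, and the difference was -3.64 ± 0.26 (limma adjusted p = 1.8e-09).

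ier2 (GeneID 100195092), a nuclear regulator induced by growth factors, rose from 160.4 (134 to 206) to 2986 (1864 to 3917) normalised reads with AsSug and from 160.0 (123 to 174) to 235 (186 to 461) with AsIII. Groups were separated on both plates. The AsSug effect of 4.18 ± 0.18 exceeded the AsIII effect of 0.75 ± 0.12, a difference of -3.43 ± 0.25 (limma adjusted p = 1.75e-09).

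DNA damage and apoptosis genes held no common direction with the deposited scaling. Of 20, 9 were higher and 10 lower with AsIII (median -0.15), and 6 were higher and 4 lower with AsSug (median 0.01). With library totals 8 were higher and 10 lower with AsIII (median -0.27), and 9 were higher and 3 lower with AsSug (median 0.30). The difference favoured AsIII for 7 and AsSug for 10 (median -0.46, or -0.89 with library totals).

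plk3 (GeneID 106599391), a stress-responsive kinase, and ccng2 (GeneID 106568527), an unconventional cyclin of arrested cells, rose by 3.97 ± 0.26 and 3.29 ± 0.13 with AsIII. Their differences from AsSug were 3.9 ± 0.47 (limma adjusted p = 1.2e-06) and 3.67 ± 0.39 (limma adjusted p = 2.59e-07). sesn1 (GeneID 106607965), a p53 target that restrains growth signalling, moved the opposite ways, from 959.7 (732 to 1691) to 151 (124 to 209) normalised reads with AsIII and from 1060.2 (639.5 to 1396) to 1867 (1465 to 2084) with AsSug. The groups were separated on each plate, with a difference of -3.51 ± 0.18 (limma adjusted p = 4.06e-11). btg2 (GeneID 101448010), an antiproliferative p53 target, ran counter to sesn1, at 2.18 ± 0.09 with AsIII and -1.08 ± 0.20 with AsSug, a difference of 3.26 ± 0.20 (limma adjusted p = 3.03e-10).

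Among 16 cell cycle genes, 5 were higher and 7 lower with AsIII, and 5 were higher and 4 lower with AsSug. The difference favoured AsIII for 2 and AsSug for 4 and was not called for 10. Its median changed sign with the scaling (0.11, or -0.24 with library totals). rrm2 (GeneID 106607664), the small subunit of ribonucleotide reductase, was at 13.1 (5.55 to 18) normalised reads in the AsIII controls and 369.7 (343 to 419) with AsIII, and at 14.5 (5.49 to 24.4) and 8.1 (0 to 107) on the AsSug plate. The AsIII groups were separated and the AsSug groups overlapped, with 58 reads in all and 1 library without reads at 250 µM. The difference was 5.59 ± 0.75 (limma adjusted p = 3.88e-06). aspm (GeneID 106560548), a spindle pole protein, had effects of -2.3 ± 0.15 and 1.76 ± 0.29 and a difference of -4.06 ± 0.37 (limma adjusted p = 3.51e-08). Of 6 genes of chromatin methylation, 5 were higher with AsIII and 4 with AsSug. The difference favoured AsIII for 2 and AsSug for 3, and with library totals for 1 and 3. The histone demethylase gene kdm6a (GeneID 106581938) rose more with AsSug (2.76 ± 0.22) than with AsIII (0.54 ± 0.09, not called with thinned reads), by -2.22 ± 0.26 (limma adjusted p = 7.57e-07).

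The protein machinery of mitochondria was compared on both plates. Of 50 genes of the mitochondrial ribosome, which translates the proteins that mitochondrial DNA encodes, 37 were lower and 3 higher with AsIII (median -0.53), 34 were lower and 4 higher with AsSug (median -0.72), and 25 were lower with both. With library totals AsSug lowered 24 and raised 9 (median -0.43). The difference favoured AsIII for 19 and AsSug for 14, close to the shares of all genes (38.8% and 27.5%). With library totals it favoured AsIII for 9 and AsSug for 20. mrps24 (GeneID 106562909) had effects of -0.42 ± 0.10 and -2.46 ± 0.32, and exceptions were mrps6 (GeneID 106578814), at 1.55 ± 0.09 and -1.0 ± 0.20, and mrpl1 (GeneID 106585874), at -0.19 ± 0.09 and 1.79 ± 0.17. The AsIII effect of mrpl1 was called as a fall with library totals. With thinned reads the AsIII effect of mrps24 and the AsSug effect of mrps6 were not called. Of 45 genes of oxidative phosphorylation, 30 were lower and 6 higher with AsIII (median -0.31), and 17 were lower and 6 higher with AsSug (median -0.14, or 0.16 with library totals). The difference was called for 11 in each direction, and with library totals 6 favoured AsIII and 21 AsSug. Among 44 cytosolic ribosomal proteins, 3 were higher and 8 lower with AsIII, and 12 were higher and 13 lower with AsSug. These counts turned on the scaling, with 1 higher and 27 lower with AsIII and 17 higher and 8 lower with AsSug under library totals. The difference favoured AsIII for 11 and AsSug for 13, and under library totals for 5 and 21.

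Hepatocyte genes called were more often lower than higher with each compound. Of 25, 18 were lower and 3 higher with AsIII (median -0.43), 14 were lower and 3 higher with AsSug (median -0.46), and 11 were lower with both. With library totals 20 were lower and 3 higher with AsIII (median -0.55), and 12 were lower and 4 higher with AsSug (median -0.23). The median difference of 0.24 equalled that of all genes and was -0.18 with library totals. tfa (GeneID 100136560), the iron carrier transferrin of plasma, was at 270851 (260714 to 331777) normalised reads in the AsIII controls and 179152 (159764 to 205441) with AsIII. On the AsSug plate it was at 280271 (248939 to 311542) and 69978 (43737 to 93564). All exposed libraries were below all controls, further with AsSug, and the difference was 1.38 ± 0.25 (limma adjusted p = 0.000106). apoa1 (GeneID 100196111), the main protein of high density lipoprotein, had an AsIII effect of -0.10 ± 0.09, called as a fall with library totals and thinned reads, and an AsSug effect of -1.68 ± 0.21, a difference of 1.58 ± 0.22 (limma adjusted p = 6.37e-06). rbp4 (GeneID 100195744), the plasma carrier of retinol, fell with AsIII (-0.74 ± 0.06) and rose with AsSug (0.62 ± 0.17), a difference of -1.35 ± 0.18 (limma adjusted p = 2.78e-06).

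Of 11 genes for arsenic and metal handling, 4 were higher and 4 lower with AsIII, and 5 were higher and 3 lower with AsSug. The difference favoured AsIII for 2 and AsSug for 4 (median -0.23), and with library totals for 1 and 5 (median -0.66). With library totals AsSug raised 7 of them and lowered 2. After abcc3 and mt2 the largest difference was in gsto1 (GeneID 100196443). Its product, a glutathione transferase of the omega class, reduces arsenic species in mammals. It was at 1470.3 (1368 to 1807) normalised reads in the AsIII controls and 2155 (1954 to 2412) with AsIII, against 1535 (1184 to 1847) and 952 (551 to 1729.6) on the AsSug plate. AsIII libraries were above all controls and AsSug libraries overlapped theirs at lower levels. The effects were 0.53 ± 0.07 (limma adjusted p = 5.65e-06) and -0.67 ± 0.17 (limma adjusted p = 0.00354), the latter not called with thinned reads, and the difference was 1.2 ± 0.21 (limma adjusted p = 5.68e-05).

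In the remaining lists the counts of the difference in favour of AsIII and of AsSug were 7 and 4 of 14 one-carbon genes, 5 and 3 of 18 glycolysis genes, 8 and 1 of 12 acute phase genes, 4 and 0 of 12 interferon genes, 8 and 2 of 14 genes of translocation into the ER and 3 and 1 of 6 xenobiotic metabolism genes. With library totals these counts were 5 and 6 (one-carbon), 5 and 3 (glycolysis), 6 and 4 (acute phase), 3 and 1 (interferon), 6 and 2 (translocation) and 2 and 1 (xenobiotic metabolism). With thinned reads those of the one-carbon and translocation genes were 3 and 5, and 5 and 4. mthfd2 (GeneID 106580352), a mitochondrial enzyme of the folate cycle, had the largest one-carbon difference, 3.38 ± 0.21 (limma adjusted p = 2.7e-10), and rose by 2.72 ± 0.09 with AsIII. tiparp (GeneID 106613254), a target of the aryl hydrocarbon receptor, rose with both compounds (2.04 ± 0.09 and 1.16 ± 0.15).

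Markers of other cell types were checked. Of the listed markers, 3 of 14 endothelial, 4 of 13 stellate and fibroblast, 3 of 13 macrophage and granulocyte, 0 of 11 lymphocyte, 1 of 10 erythrocyte and 2 of 10 cholangiocyte genes were found by gene symbol. Markers not found may be present under a LOC name, so 0 of 11 does not show that lymphocyte transcripts were absent. The summed level of the stellate and fibroblast markers was 319 to 678 normalised reads in the AsIII controls and 1647 to 2148 with AsIII, and 309.5 to 723 in the AsSug controls and 157 to 250.5 with AsSug. The largest part of that sum with AsIII was timp2 (GeneID 100196250), a secreted inhibitor of matrix proteases that other cells also make, at 1810.0 (1537 to 2064) normalised reads with AsIII and with a difference of 3.86 ± 0.26 (limma adjusted p = 8.3e-10). Of the 4 members of that list, 2 were higher and 1 lower with AsIII, and 3 were lower with AsSug. The macrophage and granulocyte sum was 2532 to 3251 in the AsIII controls and 1469 to 1935 with AsIII, and 2537 to 3083 in the AsSug controls and 651 to 1607 with AsSug. Of its 3 members, however, 2 were higher and 1 lower with AsIII (median 0.60), so the sum does not stand for all of them. With AsSug 2 of these were lower and 1 was not called. The endothelial sum was 174 to 252 and 421 to 563 on the AsIII plate and 198 to 244 and 264 to 331 on the AsSug plate. Here too the members were divided, with 1 of 3 higher, 1 lower and 1 not called with each compound. The single erythrocyte marker was at 209.9 to 395 and 222 to 356 on the AsIII plate and 252 to 365 and 509 to 729 on the AsSug plate, and the cholangiocyte sum at 2847 to 3527 and 3039 to 3373, and 2561 to 3271 and 2112 to 2898. Of the 2 cholangiocyte markers, 1 was higher and 1 not called with AsIII, and 1 was higher and 1 lower with AsSug. The part of these cells in the differences was not tested.

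**Figure D5:**
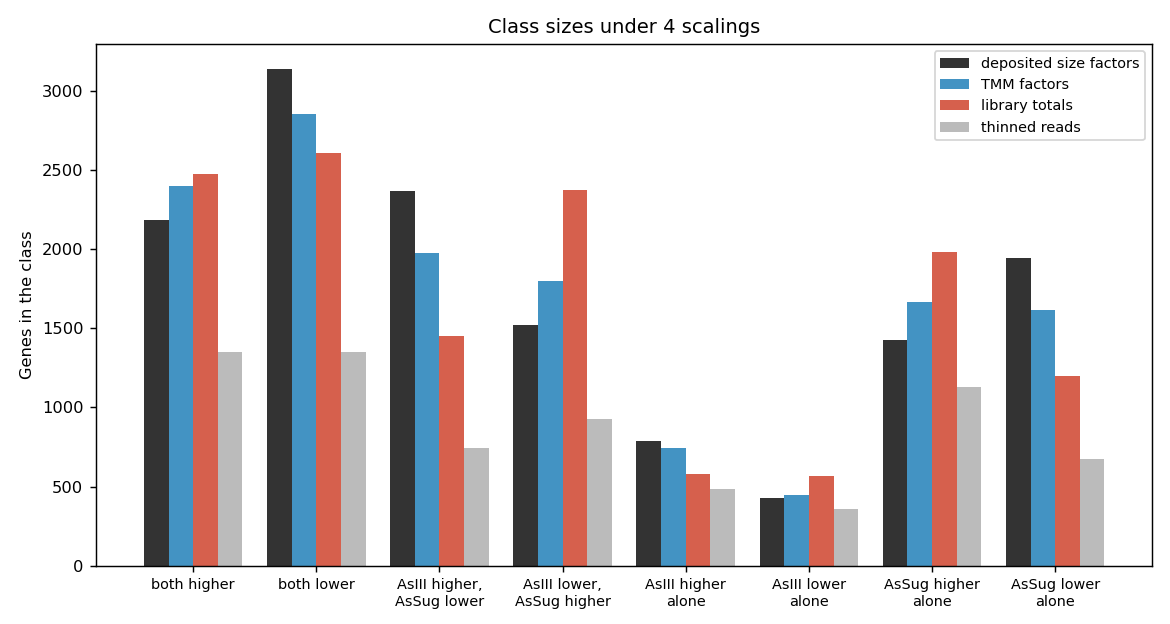
Number of genes (y axis) in each of the 8 groups of genes (x axis) under 4 scalings, namely the deposited size factors, TMM factors, library totals and reads thinned to the shallowest library. Genes higher with AsIII and lower with AsSug outnumber the reverse with the deposited factors (2368 against 1518) and not with library totals (1451 against 2374). A gene can stand both in an alone group and in a group called with both compounds. The thinned reads were scaled by their totals.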

How the data were processed

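RNA-seq libraries of Atlantic salmon hepatocytes, 6 in each of 4 groups, were compared. Reads were aligned with HISAT2 and counted with featureCounts of Subread, per the submitters' processing notes, which also name DESeq2 1.40.2. The sources used here do not name the genome build. The deposited signal of each gene is its read count divided by 1 size factor per library, per the file headers and the values: multiplied back, at least 99.9947% of the values in each of the 54 libraries lay within 0.1 of a whole read. No column was left unmapped.

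A gene was kept when 6 or more of the 24 libraries reached a value of 10, which left 18899 of 18901. Log2(value + 1) was fitted with limma 3.58.1 (R 4.3.3) with a trended variance. Each compound's effect came from its 12 libraries with a term for fish, and the difference of effects from all 24 with fish nested in plate. The Benjamini-Hochberg adjustment ran over every gene tested. Fold changes on this scale understate those of low genes. Alternatives were library totals, TMM factors, pseudocounts of 10 and 0.5, no filter and a mean of 50 or more. Reads were also thinned to 897560 per library and then scaled by totals, so this setting shares its scaling with library totals. Further alternatives were edgeR 4.0.16 and DESeq2 1.42.0 on whole reads, no term for fish, each fish left out, and other groups or blocks in the fit. The code was tested on simulated data with changes in the AsIII arm only and known size factors. That test does not cover opposite effects or the choice of scaling.

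Fish numbers pair the libraries because each number is 1 animal in the labels. Deviations from the group means correlated at a median of 0.227 within a fish and -0.0329 between fish for the AsIII groups, and at 0.0963 and -0.0299 for the AsSug groups.

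In each of the 8 groups of genes, 4 genes with a symbol were named: those that moved as the group does in 6 of 6 fish, with a mean of 50 or more in 1 group and no library without reads, ranked by the smaller absolute change (genes called with both compounds) or by the absolute difference (alone). List members named are among those with the largest absolute difference in their list. The groups, lists and rules were chosen with earlier results of these data known. Lists were matched by symbol, allowing a copy suffix, and rrm2b, rad51b and acadsb, which are genes of their own, came in this way. Symbols came from a RefSeq table (18900 of 18901 identifiers found, 6224 with a symbol). Near-identical gene copies are frequent in salmon, and the sources used here do not say how reads shared by copies were counted, so levels of single copies are uncertain. The values of 1 gene taken by this rule are not reported here. Sequences were not used here.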

Additional observations from a re-analysis of the deposited data

Results flagged for a closer look

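In 9 of the 128 groups of 6 libraries behind the 32 genes taken by rank, 1 library lay far from the other 5 by Dixon's test at the 95% level. Chance gives about 1 in 20 such groups. The values are normalised reads.

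Among the AsSug controls, gramd2ab was at 19.2 in fish 6 (nearest other library 9.93), lepa at 7.23 in fish 3 (nearest 14.9), per2 at 136 in fish 3 (nearest 101) and tmbim4 at 571 in fish 2 (nearest 625). At 250 µM AsSug, tph1a was at 93.0 in fish 6 (nearest 32.0), cldn3c at 393 in fish 4 (nearest 1431) and alox5ap at 1318 in fish 1 (nearest 852). Among the AsIII controls, adam10a was at 273 (nearest 208) and nkapd1 at 49.9 (nearest 37.6), both in fish 1. No library at 3 µM AsIII was singled out for these genes.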

How the results depend on the processing

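The counts of genes called and of each group of genes stayed within 1.5 times of the reported ones under the alternatives run, with exceptions under library totals and thinned reads. The thinned reads were themselves scaled by totals. With library totals 1451 genes were higher with AsIII and lower with AsSug, 2374 were the reverse and 1197 were lower with AsSug alone. With reads thinned to the shallowest library, which removes most reads, AsIII called 8697 genes, 1347 were higher with both, 1350 lower with both, 745 higher with AsIII and lower with AsSug, 929 the reverse, 486 higher with AsIII alone and 671 lower with AsSug alone. The AsIII effect of slc25a42 changed sign there (-0.39, limma adjusted p = 0.23).

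Leaving out each fish in turn gave 11703 to 12210 differences called, 13875 to 14098 genes for AsIII and 10951 to 11684 for AsSug. Without the replicate block for fish, 12145 differences, 13921 AsIII effects and 11561 AsSug effects were called. DESeq2 called 12994 differences and edgeR 12871.

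Of 1716 values of the named genes under alternatives, 1684 either kept call and sign or stayed uncalled, 20 lost the call, 11 gained one, and 1 lost the call and changed sign (slc25a42). Of the uncalled values, 28 changed sign, in the AsSug effects of herc4, per2 and txnip and the differences of apoeb, igfbp-1b1 and smug1. Among their differences, 10 of 572 changed call, those of abca7 and abcc3. The cause of these changes was not tested. Depth at 250 µM limits genes with few reads there.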
